A study of Fundulus heteroclitus with 6 samples.

Results

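A set of 115 isogroups had at least 2-fold more reads per library total in killifish embryos from New Bedford Harbor (NBH) than in embryos from Scorton Creek (SC), both with DMSO and with PCB-126. An isogroup is a set of overlapping assembled sequences taken to come from the same gene. The members were chosen by their measured read counts, out of 22732 isogroups in the deposited table. The rule kept isogroups with at least 10 reads in the NBH and SC libraries with DMSO, at least 10 reads in the NBH and SC libraries with PCB-126, and a ratio of NBH to SC of at least 2 in each of these pairs. For the ratio, 0.5 reads were added to each count before division by the library total. In all, 2516 isogroups had enough reads in both pairs, and 115 of them passed both ratios (4.57%). The rule also set aside isogroups with at least 100 reads in all 4 libraries, and none of those that passed the ratios had so many. The files do not pair isogroups with gene names or sequences, so that no function can be given for any member.

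RNA of 10-dpf embryos of *Fundulus heteroclitus* was sequenced as 4 libraries, each from a different group, namely NBH embryos with PCB-126, NBH embryos with DMSO, SC embryos with PCB-126 and SC embryos with DMSO. By the methods of the study, 4-hpf embryos were held for 1 h in 50 nM PCB-126 or in the solvent DMSO (0.1%), whereas the sample labels give 6 h of treatment before sampling. Eggs of 8 females were fertilized with sperm of 5 males at each site, and equal amounts of RNA from 3 pools of 20 whole embryos went into each library. A population is thus represented by the offspring of a few wild fish, and differences between the sites cannot be told apart from differences between these parents. There was 1 library per group, so differences have no replicate check. All intervals, and the tests within 1 population by Fisher's exact test, cover counting error only. Intervals of the NBH to SC ratios do not allow for the choice of members by these ratios, and are a description. Reads matching 1 isogroup uniquely numbered 123644 for NBH with PCB-126, 95410 for NBH with DMSO, 132893 for SC with PCB-126 and 124000 for SC with DMSO. Library totals and shares of reads refer to these reads, not to all reads sequenced. The cDNA was 3'-anchored, with 1 read for each transcript by the labels, and counts were not corrected for transcript length.

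New Bedford Harbor is heavily contaminated with PCBs, and its killifish are known for an inherited resistance to dioxin-like compounds. PCB-126 is such a compound. It binds the aryl hydrocarbon receptor (AHR), a transcription factor that turns on genes such as CYP1A, and in sensitive fish embryos sustained activation of this receptor disturbs heart development. The comparison of the populations with DMSO concerns basal levels, and that with PCB-126 the levels after treatment. The 2 comparisons have no library in common. The paper reports that SC embryos with PCB-126 had begun to show delayed development and pericardial edema by the age sampled here. Embryos of all other groups developed normally. The comparison with PCB-126 was thus made between embryos that differed in condition, as was that of the treatments within SC. How far this difference in condition entered the ratios was not tested.

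The members took 1.83% of the reads of the NBH library with PCB-126 (2264 reads, exact 95% Clopper-Pearson interval 1.76% to 1.91%) and 2.16% of that with DMSO (2061 reads, 2.07% to 2.25%). They took 0.471% of the reads of the SC library with PCB-126 (626 reads, 0.435% to 0.509%) and 0.539% of that with DMSO (668 reads, 0.499% to 0.581%). These sums follow from the rule and are given as a description. Without isogroup01987, the member of most reads, the shares were 1.67% and 2.06% in NBH, against 0.444% and 0.503% in SC, with PCB-126 given first in each population.

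Single members were of low to moderate abundance. In NBH embryos they had 7 to 200 reads with PCB-126 (median 15) and 7 to 99 reads with DMSO (median 15). In SC embryos they had 0 to 36 reads with PCB-126 (median 4) and 0 to 44 reads with DMSO (median 5). The SC counts carry most of the counting error, since 64 members had fewer than 5 reads in SC with PCB-126 and 57 in SC with DMSO. No member had fewer than 5 reads in either NBH library.

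**Figure D1:**
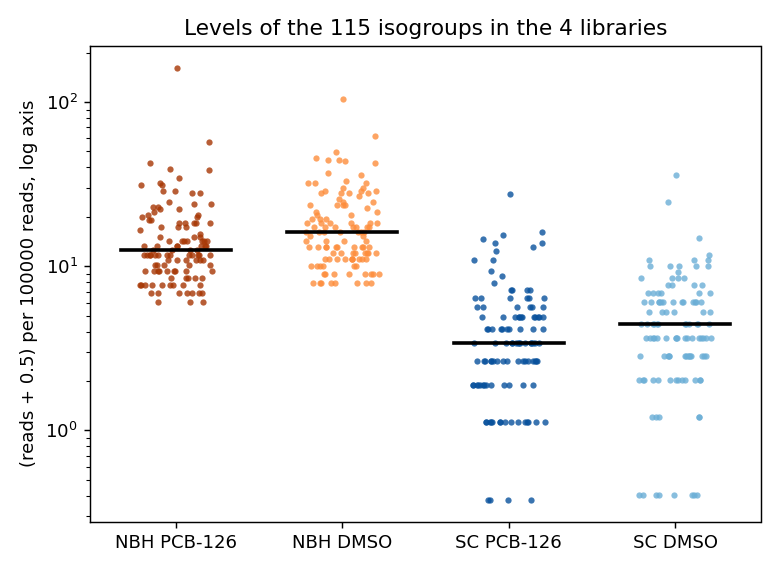
Reads of the 115 isogroups per 100000 reads of the library, with 0.5 reads added, on a log axis. Points are isogroups and black lines are medians. The lowest row of points in the SC libraries is a count of 0, held by 4 members with PCB-126 and 8 with DMSO.

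With PCB-126 the ratio of NBH to SC was at least 2.03 in the members, with a median of 3.22 and quartiles of 2.38 and 5.79. With DMSO it was at least 2.01, with a median of 3.61 and quartiles of 2.5 and 5.90. The medians were the same with members at a count of 0 in SC (4 with PCB-126 and 8 with DMSO) set to their lower bound, for which 3 counts stood in place of 0. This had to be so, since the minimum of 10 reads keeps each such bound above the median. The upper end of the ratios is poorly determined, since it rests on SC counts of 0 or 1. The largest ratios over 3 counts in place of 0 were 12.5 with PCB-126 and 11.3 with DMSO, both in isogroup08644. Such a bound leaves out error in the NBH count. Over all 2516 isogroups with enough reads the medians were 1.01 with PCB-126 and 0.983 with DMSO. A ratio of at least 2 was found in 17.9% of them with PCB-126 and in 17.6% with DMSO, and the rule required both of every member. The ratio was larger with PCB-126 in 49 members and larger with DMSO in 66. In 79 members the 2 ratios lay within 2-fold of each other. Both reached 4 in 25 members, 1 of the pair did in 44, and neither did in 46. With 0.5 reads added, both ratios reached 10 in isogroup08644, isogroup09864, isogroup10306, isogroup10730 and isogroup17515, of which the last 3 were singled out after their values had been seen. None of these 5 had reads in SC with DMSO, and the size of their ratios depends on the added reads. With 3 counts in place of 0, the number was 2, namely isogroup08644 and isogroup10730. The latter had 1 read in SC with PCB-126, where its ratio kept the 0.5 added reads. The lower limits of the exact intervals were below 10 for both. They were 9.67 with PCB-126 and 8.53 with DMSO in isogroup08644, and 6.13 with PCB-126 and 8.17 with DMSO in isogroup10730. A ratio of at least 10 is thus not shown for either.

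**Figure D2:**
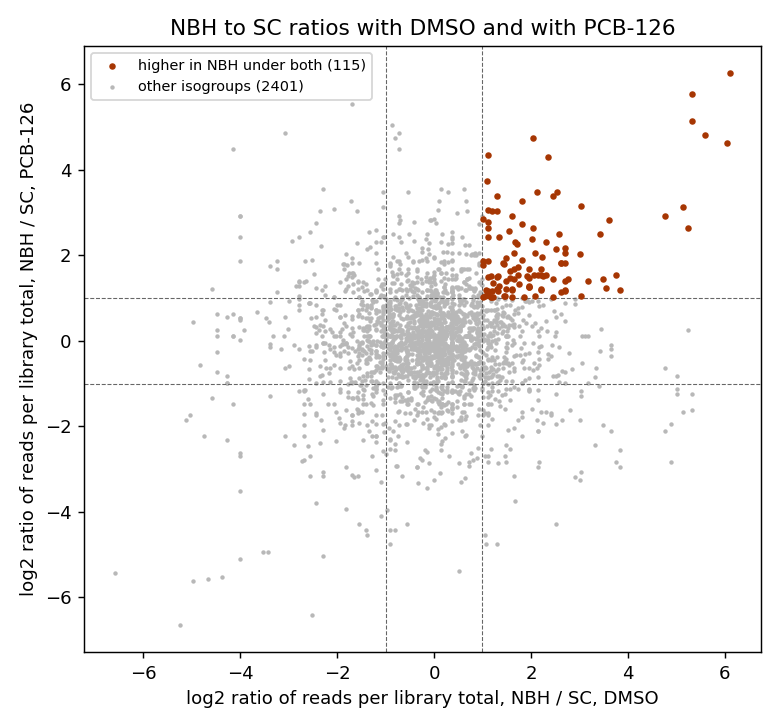
Log2 ratio of NBH to SC reads per library total with DMSO (x axis) and with PCB-126 (y axis), for 2516 isogroups with enough reads. Dashed lines mark 2-fold. The 115 members fill the upper right corner by the rule, and the other corners hold isogroups that were higher in SC under both treatments or differed in opposite directions.

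The levels of the populations did not overlap for most members. In 112 of the 115, both NBH libraries had more reads per library total than both SC libraries, a pattern found in 19% of the 2516 isogroups, and which the rule favours. In 85 the lower NBH level was at least 2 times the higher SC level, against 3.58% of the 2516 isogroups, and this too follows largely from the rule. The levels overlapped in isogroup05408, isogroup03373 and isogroup00867, of which the last 2 were named after their values had been seen. In isogroup05408, the NBH library with PCB-126 had 13.7 reads per 100000 and that with DMSO 49.3, against 3.76 in SC with PCB-126 and 24.2 in SC with DMSO. In each of these 3 members, the NBH level with PCB-126 was below the SC level with DMSO.

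The number of members has to be read beside the isogroups that passed the same ratios in other directions. A set of 126 isogroups was higher in SC under both treatments. There were 91 isogroups that were higher in NBH with DMSO and higher in SC with PCB-126, and 100 with the reverse pattern. Thus 241 isogroups differed in the same direction in both pairs and 191 in opposite directions. At 20 to 49 reads over the 4 libraries, 80 isogroups were higher in NBH under both treatments (6.54% of 1224), against 89 higher in SC under both, and 79 and 73 with opposite directions. At 50 to 99 reads, 29 were higher in NBH under both (4.33% of 670), against 28 higher in SC under both, and 9 and 22 with opposite directions. At 100 or more reads the numbers were 6 (0.965% of 622), 9, 3 and 5. In the class of fewest reads, which holds 80 of the 115 members, isogroups with opposite directions were therefore about as many as those with the same direction. These counts are a description, and whether the members exceed what scatter between single libraries gives was not tested.

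**Figure D3:**
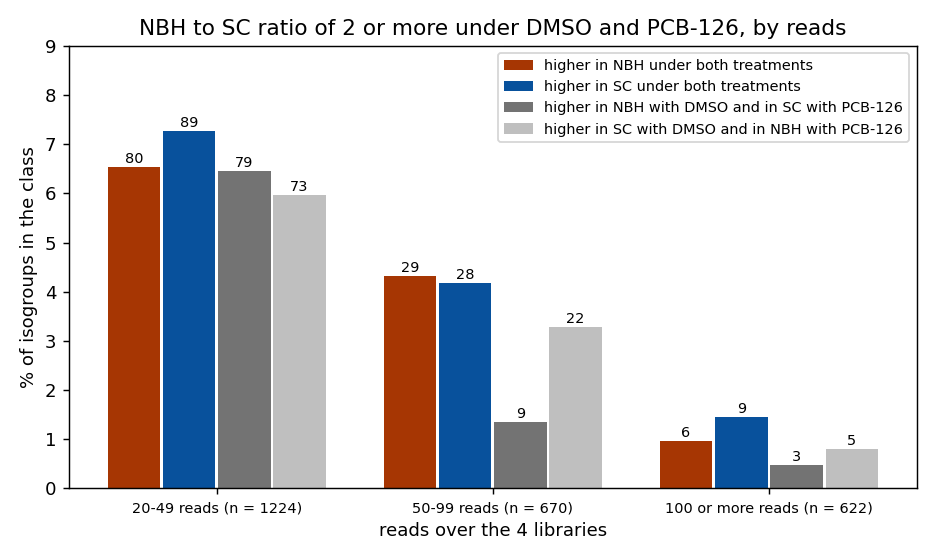
Share of isogroups with a ratio of at least 2 between NBH and SC with DMSO and with PCB-126, by reads over the 4 libraries. Bars start at 0, numbers above them are isogroups, and grey bars are isogroups whose direction differed between the treatments. The members are the bars of 80, 29 and 6 isogroups.

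The members had a median of 37 reads over the 4 libraries, against 39 for the 126 isogroups higher in SC under both treatments. The median ratios of SC to NBH in the list higher in SC were 3.62 with PCB-126 and 3.23 with DMSO. Among the members, 3 had no reads in either SC library and 6 had none in 1 of them. In the list higher in SC, 5 isogroups had no reads in either NBH library and 16 had none in 1 of them. Differences between the lists were not tested.

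In all, 6 members had at least 100 reads over the 4 libraries. Isogroup01987 had 200 reads in NBH with PCB-126 and 99 in NBH with DMSO, against 36 in SC with PCB-126 and 44 in SC with DMSO. The ratio of NBH to SC, without added reads, was 5.97 with PCB-126 (exact 95% interval 4.17 to 8.77) and 2.92 with DMSO (2.03 to 4.27). It was the member of most reads in every library. Isogroup00342 had 70 and 59 reads in NBH with PCB-126 and DMSO, against 21 and 12 reads in SC with PCB-126 and DMSO. Its ratio was 3.58 with PCB-126 (2.17 to 6.14) and 6.39 with DMSO (3.40 to 13.1). These 2 members differed in which treatment had the larger ratio, although in each the intervals of the treatments overlapped.

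The other 4 members of this size had between 22 and 52 reads in each NBH library, against 8 to 20 reads in each SC library. They were named after their values had been seen. Isogroup00606 had 52 and 43 reads in NBH with PCB-126 and DMSO, against 19 and 13 in SC with PCB-126 and DMSO. Isogroup15442 had 47 and 40 reads in NBH, against 18 and 13 in SC, in the same order of treatments. In each of the 4 libraries the counts of these 2 members differed by at most 5 reads. Isogroup00442 had 38 and 42 reads in NBH, against 18 and 8 in SC. Isogroup08564 had 48 and 22 reads in NBH, against 20 and 12 in SC. In all 6 members each NBH level was above both SC levels.

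In 3 members there were no reads in either SC library. Isogroup08644 had 35 reads in NBH with PCB-126 and 26 in NBH with DMSO, against 0 and 0 in SC. With 3 counts in place of 0 in each SC library, its ratio was 12.5 with PCB-126 and 11.3 with DMSO. The exact 95% lower limits from the counts were 9.67 with PCB-126 and 8.53 with DMSO. Isogroup09864 had 25 and 15 reads in NBH with PCB-126 and DMSO, against 0 and 0 in SC. Its ratio over 3 counts was 8.96 with PCB-126 (lower limit 6.76) and 6.50 with DMSO (lower limit 4.66). Isogroup10306 had 16 and 15 reads in NBH, against 0 and 0 in SC. A count of 0 allows a share of up to 0.00226% of the reads in SC with PCB-126 and 0.00242% in SC with DMSO, so an absence of these transcripts in SC is not shown. Between the treatments, the ratio of PCB-126 to DMSO in NBH was 1.04 for isogroup08644 (0.608 to 1.80) and 1.29 for isogroup09864 (0.652 to 2.62), and both intervals include 1.

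Where both SC libraries had at least 5 reads (34 members), isogroup10937 and isogroup01589 had the largest ratios when members were ranked by the smaller of their 2 ratios. Isogroup10937 had 26 reads in each NBH library, against 5 in SC with PCB-126 and 8 in SC with DMSO. The ratio was 5.59 with PCB-126 (2.11 to 18.6) and 4.22 with DMSO (1.86 to 10.8). Isogroup01589 had 23 and 30 reads in NBH with PCB-126 and DMSO, against 6 and 8 in SC with PCB-126 and DMSO. Its ratio was 4.12 with PCB-126 (1.63 to 12.4) and 4.87 with DMSO (2.18 to 12.3). In both members the intervals of the 2 treatments overlapped. The rule and this ranking both chose on the ratios, which the intervals do not allow for.

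**Figure D4:**
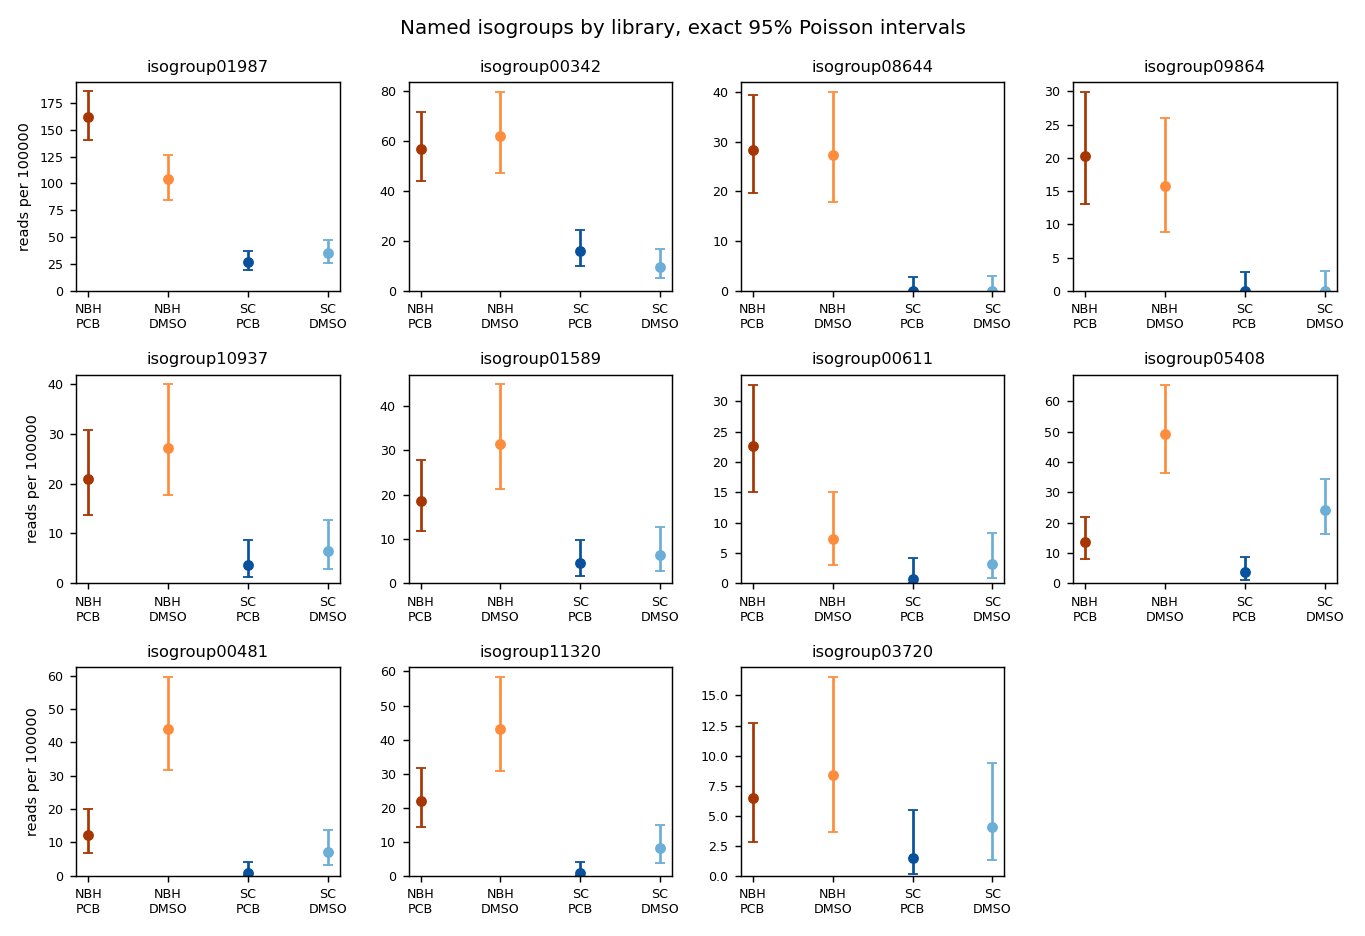
Reads per 100000 reads of the library for 11 members, with exact 95% Poisson intervals of the counts. NBH libraries are orange and SC libraries blue, with PCB-126 in the darker shade. In isogroup05408 the NBH library with PCB-126 (13.7) lies below the SC library with DMSO (24.2), and in isogroup08644 both SC libraries are at 0.

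The members nearest the limit of 2 rested on few reads. Just inside it were isogroup03720 and isogroup06833, with the same 8 reads in NBH and 5 in SC with DMSO, a ratio of 2.01. The second was named after its values had been seen. With PCB-126 isogroup03720 had 8 reads in NBH, against 2 in SC, and isogroup06833 had 8, against 4. The isogroup just outside it, isogroup02983, had 19 and 8 reads in NBH, against 10 and 4 in SC, and a ratio of 1.996 with PCB-126. A change of 1 read in a single library would have moved any of the 3 across the limit. Not all members close to the limit had so few reads. Isogroup05408 had 99 reads over the 4 libraries and a ratio of 2.02 with DMSO, from 47 reads in NBH, against 30 in SC.

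The response of the members to PCB-126 is a contrast that did not choose them, although it uses the same 4 counts. PCB-126 and DMSO libraries of 1 population were compared with Fisher's exact test (two-sided) over all isogroups that reached 10 reads in those libraries together. A call required a Benjamini-Hochberg adjusted p below 0.05 together with a 2-fold ratio. In NBH all 115 members were tested, of which 1 was higher with PCB-126 (0.870%) and 9 were lower (7.83%). Over all isogroups the background was 11.8% higher and 11.2% lower, of 3691 tested in that population. Every member had at least 7 reads in each NBH library because of the rule, which limits the responses that members can show there, and the smaller shares are not read as a result. In SC 51 members had enough reads to be tested, of which 0 were higher and 4 were lower (7.84%). The background in SC was 12% higher and 10.9% lower, of 4135 tested. The rule kept the SC levels of members low, and 64 members were not tested there. The smaller shares in SC are therefore not read as a result either. At an unadjusted p under 0.05, Fisher's exact test had 3 of 115 members higher and 14 lower in NBH. There, 19% of all isogroups tested were higher and 18% lower. It had 0 of 51 members higher and 6 lower in SC, against 18.8% and 17.6% of all isogroups tested. For the same reasons, these counts are not read as a result.

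The ratio of PCB-126 to DMSO in NBH lay between 0.5 and 2 in 96 members (83.5%), against 53.9% of all isogroups tested, and had a median of 0.829 in the members, against 1.05. In SC it lay between 0.5 and 2 in 37 of the 51 members tested (72.5%), against 54.9% of all isogroups tested, with a median of 0.933 in the members, against 1.02. Since the rule limits these ratios, the larger shares are a description and are not read as a stable level of the members. In SC 2 members had a ratio of at least 2 and were not called. They were isogroup00442 (18 and 8 reads with PCB-126 and DMSO, adjusted p = 0.187, Fisher's exact test) and isogroup03260 (16 and 7 reads, adjusted p = 0.217, Fisher's exact test). Both were named after their values had been seen.

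Isogroup00611 was the member called higher with PCB-126 in NBH. It had 28 reads with PCB-126 and 7 with DMSO in NBH, a ratio of 3.09 (1.32 to 8.37, Fisher's exact test, adjusted p = 0.0275). In SC it had 1 and 4 reads with PCB-126 and DMSO, too few to be tested. Isogroup01987 was also higher with PCB-126 in NBH by this test, at a ratio of 1.56 (1.22 to 2.004, adjusted p = 0.00295, Fisher's exact test), below the 2-fold limit, and had a ratio of 0.763 in SC (0.477 to 1.21, adjusted p = 0.439, Fisher's exact test).

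Isogroup05408 and isogroup00481 were called lower with PCB-126 in both populations. The share of all isogroups called lower in both was not computed, so the number of such members is not read as a result. No member was called in either population by the exact test of edgeR at an assumed coefficient of variation of 0.4. Isogroup05408 had 17 reads with PCB-126 and 47 with DMSO in NBH, a ratio of 0.279 (0.150 to 0.495, Fisher's exact test, adjusted p = 8.65e-05). In SC it had 5 reads with PCB-126 and 30 with DMSO, a ratio of 0.156 (0.0471 to 0.405, adjusted p = 0.000237, Fisher's exact test). Isogroup00481 had 15 reads with PCB-126 and 42 with DMSO in NBH, a ratio of 0.276 (0.142 to 0.507, Fisher's exact test, adjusted p = 0.000209). In SC it had 1 and 9 reads, a ratio of 0.104 (0.00237 to 0.748, adjusted p = 0.0404, Fisher's exact test). The SC intervals of both include their NBH ratios, but they are wide, and a like response in the populations is not shown. The other calls in SC were isogroup11320, with 1 read with PCB-126 and 10 with DMSO (adjusted p = 0.0250, Fisher's exact test), and isogroup07016, with 1 and 9 reads (adjusted p = 0.0404, Fisher's exact test), the second of them named after its values had been seen. In NBH isogroup11320 had 27 and 41 reads, a ratio of 0.508 (0.301 to 0.846, adjusted p = 0.0307, Fisher's exact test), just short of the 2-fold limit, and isogroup07016 had 18 and 15 reads.

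**Figure D5:**
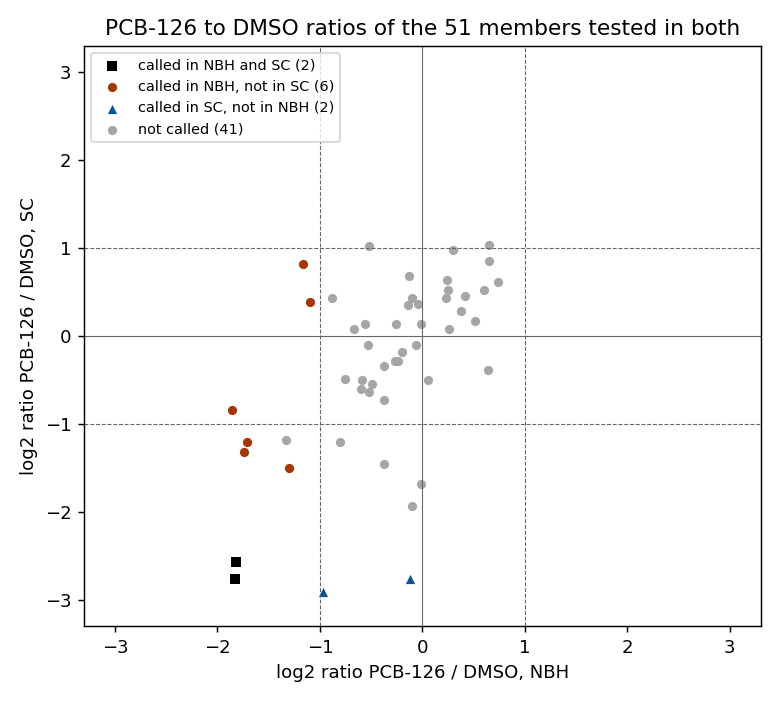
Log2 ratio of PCB-126 to DMSO reads per library total in NBH (x axis) and SC (y axis) for the 51 members with enough reads in both populations. Solid lines mark a ratio of 1 and dashed lines 2-fold. The 2 black squares at the lower left are isogroup05408 and isogroup00481.

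Of the 51 members, the ratio was below 1 in both populations in 25 and above 1 in both in 12. It was below 1 in NBH and above 1 in SC in 12, and the reverse in 2. The rule ties the ratios of the populations to each other, since a member had to be at least 2-fold higher in NBH in each treatment. The same counts over all isogroups tested in both populations were not made. These counts are therefore not read as a shared response or as a shared direction.

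Where the treatments were compared over both populations, no member was called. The quasi-likelihood test of edgeR with population as a further term took in 89 members, with 1 residual degree of freedom per isogroup. Since no group had a replicate library, this residual cannot separate scatter between libraries from unlike effects of PCB-126 in NBH and SC. An isogroup that responded in only 1 population would therefore add to the residual. The edgeR test called 0 members higher and 0 lower, and 0% of all 1955 isogroups tested in either direction. At an unadjusted p under 0.05 the edgeR test had 3 members, all lower with PCB-126, where DESeq2 had 2. These 3 are 3.37% of the members tested, against 4.55% of all isogroups tested. The 3 were isogroup05408 (log2 ratio -2.18, adjusted p = 0.887, edgeR), isogroup00481 (log2 ratio -2.18, adjusted p = 0.887, edgeR) and isogroup11320 (log2 ratio -1.58, adjusted p = 0.997, edgeR). The direction of each was the same in both populations. That no member was called does not show that none responded.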

How the data were processed

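The authors deposited 1 table of counts, which holds whole numbers of uniquely matching reads per isogroup for the 4 3'-anchored libraries, read by pyrosequencing, and these were not normalized. The methods of the study name Newbler for assembling the shotgun libraries, and BlastStation-Local for searching raw reads with array probes. Neither is named for the isogroup table, so its assembler and read matching are not given in the sources used here. In all, 7 blank cells were read as 0. The 2 shotgun libraries of untreated embryos were not analysed here.

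Uniquely matching reads numbered 95410 to 132893 per library. Ratios were formed on library totals with 0.5 reads added. Those of named members printed with an exact 95% Clopper-Pearson interval were formed without it. Lower bounds against a library without reads took 3 counts as its floor and left out error in the other count. Treatments were compared per population with Fisher's exact test, and over both populations with the quasi-likelihood test of edgeR (TMM, filterByExpr), each adjusted over all isogroups tested. The contrasts that chose the members were not tested. The scripts were tested on simulated data. Alternatives were other library sizes (TMM, DESeq2, totals without the 10 isogroups of most reads), read minimums, ratios, added reads, keeping abundant isogroups, thinning, and tests by edgeR and DESeq2. The members and lists were chosen with earlier results of these data known.

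The named members were those of most reads, of most reads without SC reads, of the largest smaller ratio with at least 5 reads in each SC library, of smallest p among those called with PCB-126 in each population and direction (at most 2 each), and the isogroups just inside and outside the ratio of 2. Others are named where a count was small.

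Software comprised R 4.3.3, edgeR 4.0.16, DESeq2 1.42.0, matplotlib 3.10.9, pandas 2.3.3, scipy 1.17.1, numpy 2.4.6 and Python 3.11.15.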

Additional observations from a re-analysis of the deposited data

How the results depend on the processing

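The number of members depended on the limits of the rule. A minimum of 30 reads in each population pair left 14 isogroups, a minimum of 1 read gave 1498, a ratio of at least 4 left 25 and a ratio of at least 1.5 gave 238. It was 111 with TMM library sizes and 100 with DESeq2 size factors, all of them among the 115. With every library thinned to 95410 reads it was 92, of which 69 were among the 115, so that 46 members were not found again and 23 other isogroups were. Members called higher with PCB-126 in NBH numbered 1, and 0 with a minimum of 1 read, with a ratio of at least 4 or with the exact test of edgeR at an assumed coefficient of variation of 0.4, and 2 with no minimum ratio. Members called lower in NBH numbered 9, and 0 with a ratio of at least 4 or with that test of edgeR. Members called lower in SC numbered 4, and 1 with a minimum of 30 reads or of 1 read, and 0 with that test of edgeR. The other counts of calls stayed within 1.5 times. No paired analysis was possible because the labels give no replicate numbers and each group had 1 library, other than the fit over both populations, which took population as a term. No library was left out, since the rule needs all 4.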
